A study of Mus musculus with 35 samples.

Results

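The 9 genes described here are those that principal cells of the kidney collecting duct use to take up water and sodium, together with a transcription factor that marks their lineage: Avpr2, Aqp2, Aqp3, Scnn1a, Scnn1b, Scnn1g, Fxyd4, Hsd11b2 and Gata3. They were found by gene symbol in the deposited count table that carries symbols and were joined by Ensembl identifier to all 35 libraries, so that they are 9 of the 31053 genes counted. All 9 passed the filter on low counts in each of the 3 crosses.

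In the principal cell, vasopressin binds the V2 receptor encoded by Avpr2 and raises cyclic AMP, which moves the water channel aquaporin-2 (Aqp2) to the apical membrane and raises its transcription, and water leaves the cell through aquaporin-3 (Aqp3) on the basolateral side. Sodium enters through the epithelial sodium channel, whose alpha, beta and gamma subunits are encoded by Scnn1a, Scnn1b and Scnn1g, and is pumped out by the sodium-potassium ATPase, which the small membrane protein encoded by Fxyd4 modulates. Aldosterone drives sodium uptake through the mineralocorticoid receptor, and Hsd11b2 inactivates glucocorticoids that would otherwise occupy that receptor. Gata3 is a transcription factor of the nephric duct and of the ureteric bud that grows out of it.

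The study asked which of the related transcription factors Tfeb and Tfe3 carries the kidney phenotype of mice lacking Flcn, the gene of Birt-Hogg-Dube syndrome. Whole kidneys of C57BL/6 mice at postnatal day 2, before cysts formed, were profiled by sequencing of transcript 3′ ends, and the labels call the libraries of a group biological replicates. Flcn KO mice were Flcn flox/flox; Ksp-cre+ (5 libraries) and were set against Flcn flox/flox controls, named control Flcn (5 libraries). Flcn/Tfeb DKO mice carried Ksp-cre+ with Tfeb flox/flox added to Flcn flox/flox (4 libraries) and had their own controls, named control Flcn-Tfeb (3 libraries). Flcn/Tfe3 DKO mice were Flcn flox/flox; Ksp-cre+; Tfe3-/- (10 libraries) and had controls named control Flcn-Tfe3 (8 libraries). The alleles of the controls in the last 2 crosses are not given in the sources used here. Ksp-cre expresses the recombinase from the promoter of Cdh16, in collecting ducts, distal tubules and the thick ascending limb, so the floxed alleles are made to recombine in those epithelia, whereas the Tfe3 null allele is carried by the whole animal. The libraries came in 3 count tables: set A holds the Flcn and Flcn/Tfeb crosses (17 libraries), set B holds control replicates 1 to 3 and DKO replicates 1 to 6 of the Flcn/Tfe3 cross (9 libraries), and set C holds the other 9 libraries of that cross. Levels were therefore compared within a set.

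Libraries held 1652649 to 4239356 counts in genes. Counts of Flcn were not lower in the libraries labelled Flcn KO (log2 fold change 0.09, adjusted p = 0.929 in edgeR), and since 3′ reads can lie past the deleted exon this does not check the labels. Nor did the counts of Tfe3 fall in the libraries labelled Flcn/Tfe3 DKO (-0.09, adjusted p = 0.937), where neither the place of the disruption nor the Tfe3 alleles of the controls are given in the sources used here, and Tfeb in those labelled Flcn/Tfeb DKO was at -0.73 (adjusted p = 0.798). The names KO and DKO are therefore used as the labels give them, and no direction below was checked through the targeted gene. Control Flcn-Tfeb replicate 3 stood apart from the other 2 libraries of its group: genes of the collecting duct list summed to 3554 CPM (a gene's count scaled to a common library size) against 2285 and 2108, urothelium genes to 78.5 against 349 and 295, and 9.07% of its reads lay outside genes against 17.8% and 19.9%. It held the highest value of its group for 6 of the 9 genes, and the Flcn/Tfeb values of each gene are given with and without it.

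The promoters of 7 of the 9 genes were present in the RefSeq table used (GRCm38.p6), each reaching from 250 bases before the start of transcription to 50 bases after it. Below are those of Aqp2 and Avpr2, the pair that held any of the short motifs searched, and of Scnn1b and Scnn1g, whose channel subunits lie side by side on chromosome 7 in the same orientation. Capitals mark matches. All are printed 5′ to 3′ on the plus strand, which is also the strand of each of these genes.
Aqp2, chr15:99578806-99579105: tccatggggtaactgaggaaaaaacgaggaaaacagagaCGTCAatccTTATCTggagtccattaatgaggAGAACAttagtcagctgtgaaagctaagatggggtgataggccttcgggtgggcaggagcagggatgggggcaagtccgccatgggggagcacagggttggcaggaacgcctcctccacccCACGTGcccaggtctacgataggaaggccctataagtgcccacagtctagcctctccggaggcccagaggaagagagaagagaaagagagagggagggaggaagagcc
Avpr2, chrX:73891852-73892151: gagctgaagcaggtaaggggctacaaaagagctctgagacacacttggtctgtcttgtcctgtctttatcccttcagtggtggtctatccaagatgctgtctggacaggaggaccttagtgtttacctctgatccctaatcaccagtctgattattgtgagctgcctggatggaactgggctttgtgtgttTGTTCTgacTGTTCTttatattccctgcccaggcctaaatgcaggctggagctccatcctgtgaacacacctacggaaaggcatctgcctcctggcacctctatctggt
Scnn1b, chr7:121864788-121865087: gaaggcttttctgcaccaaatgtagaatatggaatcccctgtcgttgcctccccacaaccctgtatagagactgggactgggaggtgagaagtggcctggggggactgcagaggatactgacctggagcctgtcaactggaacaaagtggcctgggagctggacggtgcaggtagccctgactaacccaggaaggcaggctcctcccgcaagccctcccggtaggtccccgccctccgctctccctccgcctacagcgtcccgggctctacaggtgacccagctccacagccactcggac
Scnn1g, chr7:121734229-121734528: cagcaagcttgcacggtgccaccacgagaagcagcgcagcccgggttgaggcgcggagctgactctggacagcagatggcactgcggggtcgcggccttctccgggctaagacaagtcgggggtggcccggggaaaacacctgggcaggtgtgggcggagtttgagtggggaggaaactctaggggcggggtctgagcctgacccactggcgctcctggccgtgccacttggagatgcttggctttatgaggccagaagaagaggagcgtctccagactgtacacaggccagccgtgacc
The letters searched on both strands were CACGTG, the E-box core that TFEB and TFE3 bind, AGATAA or TGATAA for GATA factors, TGACGTCA and its part TGACG for cyclic AMP response elements, and AGAACA for steroid receptors. The Aqp2 promoter held CACGTG starting at position -58, AGAACA at -179, AGATAA on the other strand at -202 and TGACG on the other strand at -211, counted from the start of transcription. The Avpr2 promoter held AGAACA on the other strand at -59 and at -50. None of these letters was found in the windows of Gata3, Aqp3, Fxyd4, Scnn1g and Scnn1b. The last 20 bases of the window were found in 1 of 6 transcripts of Gata3 and 0 of 9 of Fxyd4. Both windows lie inside the gene spans given below, so starts elsewhere in these genes were not searched. Of 32851 promoters of the same length, 7.15% held CACGTG, 18.6% a GATA motif, 1.79% TGACGTCA, 20.8% TGACG and 19% AGAACA, so single matches of this kind are common.

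The genes themselves lie at chr15:99579055-99584547 (Aqp2), chr4:41092722-41098183 (Aqp3), chrX:73892102-73895502 (Avpr2), chr6:125320659-125344943 (Scnn1a), chr7:121865038-121918514 (Scnn1b), chr7:121734479-121768475 (Scnn1g), chr6:117933559-117937692 (Fxyd4), chr8:105518755-105523988 (Hsd11b2) and chr2:9857078-9890034 (Gata3) in GRCm38. Avpr2 overlaps Arhgap4 and L1cam on the opposite strand, and Scnn1b overlaps Cog7 on the opposite strand. Gata3 overlaps 4930412O13Rik and Gm13256 on the opposite strand and 9230102O04Rik on its own, and Fxyd4 overlaps Gm25535 on its own. How reads in these overlaps were assigned depends on a strand setting that is not given in the sources used here.

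Every one of the 9 genes was detected in every library. Aqp2 ranged from 167 to 555 CPM over the 35 libraries with a median of 297 CPM, and Gata3 from 67.2 to 163 CPM with a median of 106 CPM. Hsd11b2 ranged from 23.3 to 99.4 CPM (median 58.2 CPM), Scnn1b from 36.8 to 81.1 CPM (median 54.7 CPM) and Fxyd4 from 33.6 to 78.0 CPM (median 52.0 CPM). The ranges of the other 4 were those of Aqp3 (10.98 to 60.7 CPM, median 29.4 CPM), Scnn1a (10.97 to 39.8 CPM, median 19.4 CPM), Scnn1g (6.59 to 33.0 CPM, median 18.0 CPM) and Avpr2 (6.77 to 23.9 CPM, median 11.04 CPM). Avpr2 rested on 17 to 51 counts in a library, and the fewest counts of any of the genes in a library was 14, for Scnn1g. The median coefficient of variation within a group ran from 14.7% for Aqp2 to 28.4% for Scnn1a. These levels are CPM of 3′ reads and are given to show the depth behind each gene, with no comparison of expression between genes.

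**Figure D1:**
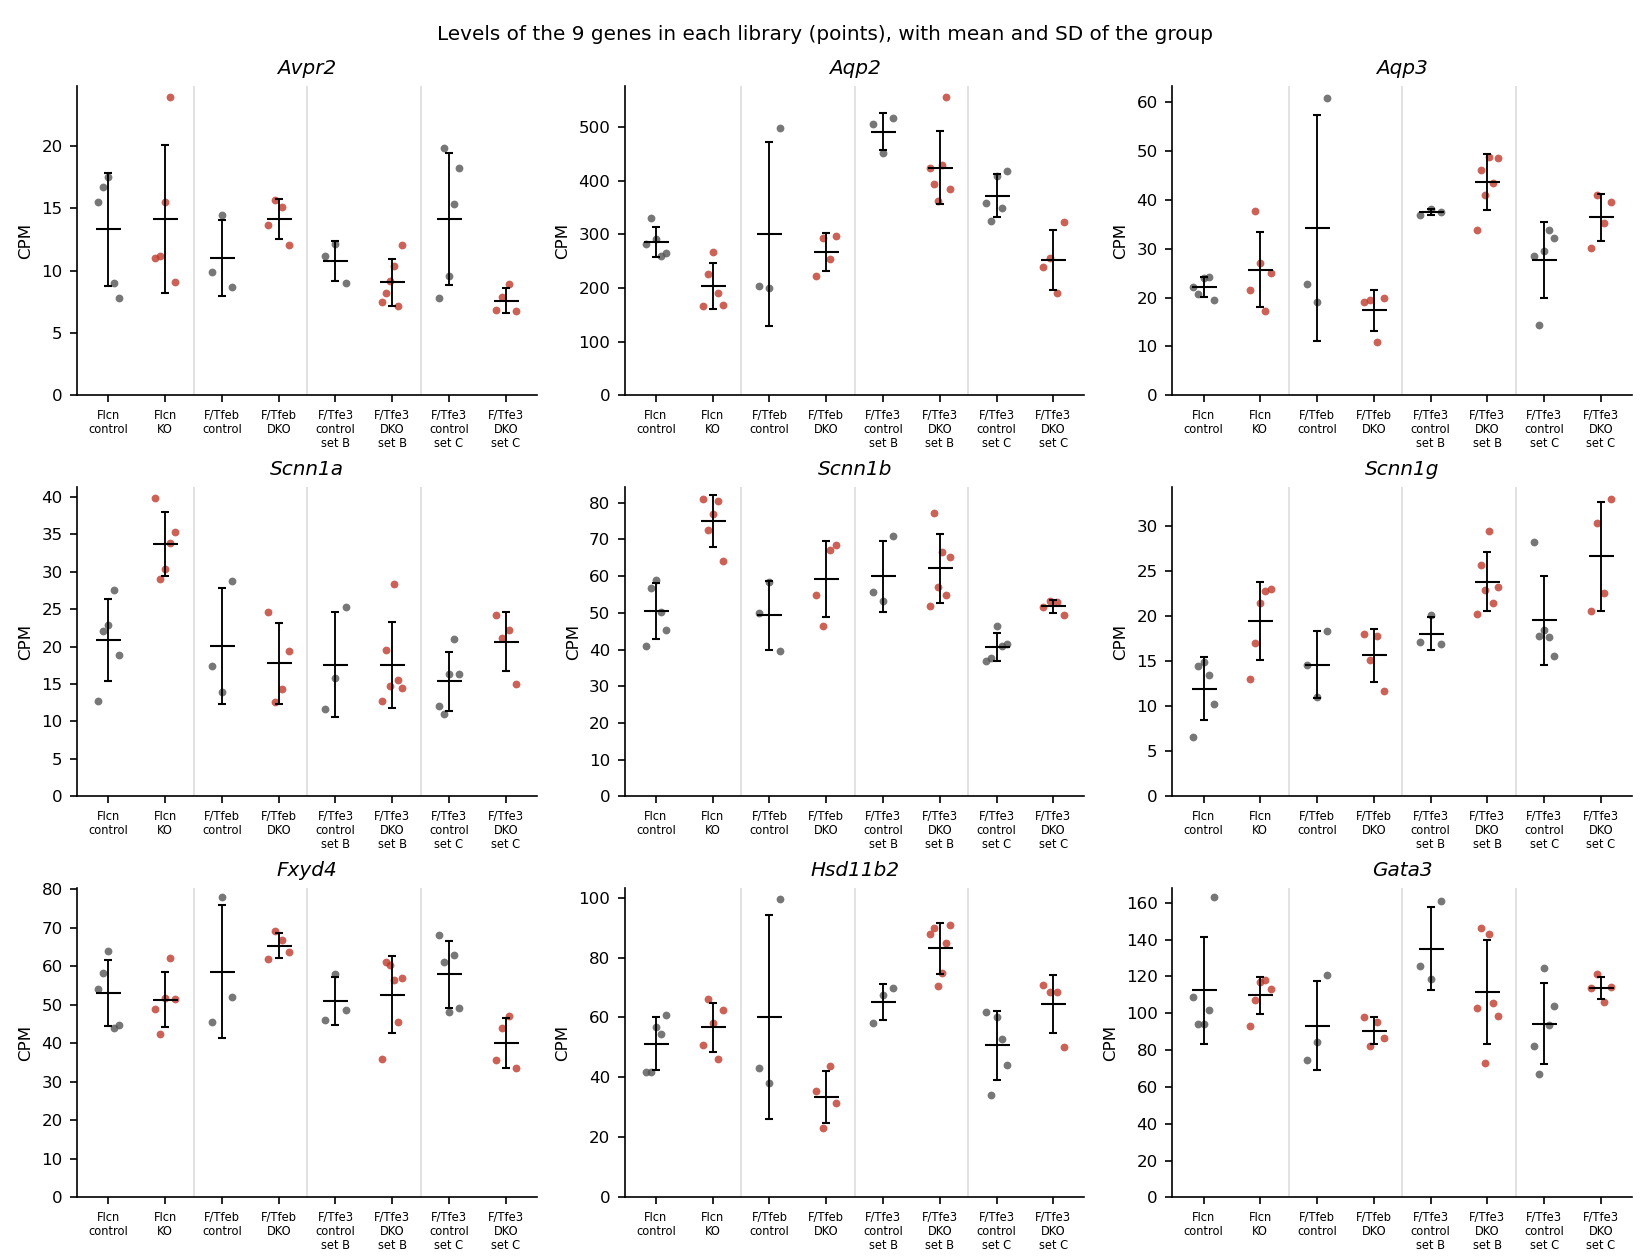
CPM (vertical axis, from 0) of each of the 9 genes in every library (points, grey for controls and red for KO or DKO libraries), with the mean and SD of each group; F/Tfeb and F/Tfe3 stand for the Flcn/Tfeb and Flcn/Tfe3 crosses. In the Flcn cross the red points of Scnn1a and Scnn1b lie above all grey ones, and 1 control library of the Flcn/Tfeb cross stands far above the other 2 for Aqp2, Aqp3 and Hsd11b2.

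Water transport was examined first, beginning with the receptor. Avpr2 counted 15.5, 16.7, 17.5, 9.002 and 7.798 CPM in the control Flcn libraries and 11.04, 11.2, 15.5, 23.9 and 9.12 CPM in the Flcn KO libraries. The groups overlapped throughout, and the log2 fold change of 0.10 (SE 0.30) was smaller than its error (edgeR adjusted p = 0.949). In the Flcn/Tfeb cross Avpr2 counted 9.90, 14.5 and 8.72 CPM in controls and 13.7, 15.7, 15.2 and 12.1 CPM in DKO libraries, with a log2 fold change of 0.39 (SE 0.28, adjusted p = 0.80), or 0.21 without control replicate 3. Across the Flcn/Tfe3 libraries it counted 11.2, 12.1 and 8.98 CPM in set B controls and 7.16 to 12.1 CPM (median 8.71 CPM) in the 6 set B DKO libraries. Set C controls counted 7.79, 19.9, 9.57, 15.4 and 18.2 CPM and set C DKO libraries 6.84, 7.86, 8.94 and 6.77 CPM. The DKO libraries of set C lay at the bottom of the range, overlapping only with the lowest control, and the change over both sets was -0.57 (SE 0.20) on the log2 scale, which did not pass over all genes (unadjusted p = 0.0095, adjusted p = 0.427 in edgeR).

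Aqp2, the vasopressin-regulated channel, was lower on average in both the Flcn KO and the Flcn/Tfe3 DKO libraries, without passing the threshold in either. Control Flcn libraries counted 282, 330.4, 291, 259 and 266 CPM and Flcn KO libraries 167, 227, 267, 191 and 169 CPM. A single Flcn KO library, replicate 3, reached the range of the controls, and the group means were 286 ± 28 and 204 ± 42.5 CPM (SD, n = 5 each). The log2 fold change was -0.48 (SE 0.14), a fold of 0.718, with an unadjusted p of 0.0026 and an adjusted p of 0.202 in edgeR. As whole kidneys were sequenced, fewer cells of a type and less RNA per cell cannot be told apart in any of these values. In the Flcn/Tfeb cross, controls counted 204, 199 and 498 CPM and DKO libraries 223, 294, 254 and 297 CPM. The DKO values lay between the lower 2 controls and replicate 3, and the log2 fold change of -0.16 (SE 0.30, adjusted p = 0.894) became 0.41 without replicate 3.

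Aqp2 in the Flcn/Tfe3 cross counted 505, 452 and 518 CPM in set B controls and 362 to 555 CPM (median 408 CPM) in set B DKO libraries. In set C, controls counted 359, 324, 409, 350.2 and 418 CPM and DKO libraries 240.0, 256, 189.9 and 324 CPM. The set C groups did not overlap, though the highest DKO library (replicate 10) and the lowest control (replicate 5) came within 1 CPM of each other, and in set B replicate 5 of the DKO group was above every control. Over both sets the log2 fold change was -0.40 (SE 0.11), a fold of 0.757, with an unadjusted p of 0.0018 and an adjusted p of 0.206 in edgeR, whereas DESeq2 on the same libraries gave an adjusted p of 0.0298. It alone passed of 8 other settings, whose adjusted p ran from 0.0298 to 0.9999.

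Aqp3, the basolateral channel, did not follow Aqp2. It counted 22.1, 20.7, 23.9, 24.3 and 19.5 CPM in control Flcn libraries and 21.6, 37.7, 27.0, 17.2 and 25 CPM in Flcn KO libraries, which enclosed the controls on both sides (log2 fold change 0.25, SE 0.18, adjusted p = 0.70). Among Flcn/Tfeb libraries it counted 22.7, 19.1 and 60.7 CPM in controls and 19.1, 19.5, 10.98 and 19.8 CPM in DKO libraries. The log2 fold change was -1.01 (SE 0.39), the largest of the 9 genes in any cross, with an unadjusted p of 0.026 and an adjusted p of 0.798 in edgeR. It rested on control replicate 3, without which it was -0.27. Aqp3 in the Flcn/Tfe3 cross was 36.8, 38.1 and 37.6 CPM in set B controls and 33.7 to 48.6 CPM (median 44.7 CPM) in set B DKO libraries, and 28.6, 14.4, 29.4, 33.7 and 32.2 CPM in set C controls against 30.2, 40.9, 35.2 and 39.4 CPM in set C DKO libraries. Most DKO libraries were above the controls of their set, but the groups overlapped in both, and the log2 fold change was 0.29 (SE 0.12, unadjusted p = 0.028, adjusted p = 0.58 in edgeR).

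Among the sodium transport genes stood Scnn1b, the single gene of the 9 that passed the edgeR test over a whole cross. It rose in the Flcn KO kidneys 1.49-fold, from 50.5 ± 7.59 CPM to 75.0 ± 6.98 CPM (SD, n = 5 each). The control Flcn libraries counted 41.0, 56.8, 59.0, 50.3 and 45.3 CPM and the Flcn KO libraries 81.1, 72.5, 76.9, 80.4 and 64.1 CPM, with no overlap. The log2 fold change was 0.58 (SE 0.13) with an adjusted p of 0.0491 in edgeR, just under the threshold of 0.05. Of 8 other settings that kept every library, 3 passed and 5 did not (adjusted p from 0.0106 to 0.153), with a log2 fold change of 0.51 to 0.58 throughout, and with each library left out in turn 3 of 10 fits passed (adjusted p from 0.0404 to 0.151). So the size of the change was steady and its place beside the threshold was not.

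Scnn1a and Scnn1g, the other subunits of the channel, were higher on average in the Flcn KO kidneys by similar amounts and did not pass. Scnn1a counted 12.7, 22.1, 22.9, 27.5 and 18.9 CPM in control Flcn libraries and 39.8, 29.1, 30.3, 33.8 and 35.3 CPM in Flcn KO libraries. The groups did not overlap, with means of 20.8 ± 5.47 and 33.7 ± 4.27 CPM (SD, n = 5 each), and the log2 fold change was 0.68 (SE 0.18), a fold of 1.60 (edgeR adjusted p = 0.135). Scnn1g counted 6.59, 14.4, 14.9, 13.5 and 10.2 CPM in control Flcn libraries and 12.95, 16.97, 21.4, 22.7 and 22.9 CPM in Flcn KO libraries. Here replicate 1 of the Flcn KO group fell among the controls, and the log2 fold change was 0.71 (SE 0.23), a fold of 1.64 (edgeR adjusted p = 0.298). Over all 11932 genes tested in this cross the median log2 fold change was -0.01.

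In the Flcn/Tfeb DKO kidneys the 3 subunits lay near their controls. Scnn1a counted 17.5, 13.9 and 28.8 CPM in controls and 24.6, 12.6, 14.4 and 19.4 CPM in DKO libraries (log2 fold change -0.18, SE 0.32, adjusted p = 0.884), and the sign turned without control replicate 3 (0.21). Scnn1b counted 50.1, 58.4 and 39.5 CPM in controls and 54.7, 46.5, 67.0 and 68.4 CPM in DKO libraries (log2 fold change 0.29, SE 0.20, adjusted p = 0.80, or 0.14 without replicate 3). Scnn1g counted 14.6, 10.98 and 18.3 CPM in controls and 18.0, 15.1, 17.8 and 11.7 CPM in DKO libraries (log2 fold change 0.09, SE 0.28, adjusted p = 0.938, or 0.30 without replicate 3). All these groups overlapped, and with 3 controls the errors were larger than in the Flcn cross.

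Across the Flcn/Tfe3 libraries Scnn1a counted 11.6, 15.8 and 25.3 CPM in set B controls and 12.8 to 28.3 CPM (median 15.2 CPM) in set B DKO libraries, and 12.1, 10.97, 16.3, 21.0 and 16.3 CPM in set C controls against 24.2, 21.1, 22.2 and 15.01 CPM in set C DKO libraries. The change was 0.21 (SE 0.19, adjusted p = 0.865 in edgeR) on the log2 scale, with overlap in both sets. Scnn1b counted 55.6, 53.3 and 71.0 CPM in set B controls and 51.7 to 77.1 CPM (median 61.1 CPM) in set B DKO libraries, which overlapped fully. In set C its controls counted 36.8, 37.7, 46.4, 40.9 and 41.5 CPM and its DKO libraries 51.6, 53.1, 53.0 and 49.4 CPM, without overlap, and the change over both sets was 0.19 (SE 0.10, adjusted p = 0.725 in edgeR). Scnn1g, the gamma subunit, was 17.1, 20.1 and 16.9 CPM in set B controls and 20.2 to 29.4 CPM (median 23.0 CPM) in set B DKO libraries, where the lowest DKO library stood just above the highest control. In set C it was 28.1, 17.8, 18.4, 17.6 and 15.5 CPM in controls and 20.5, 30.3, 22.5 and 33.0 CPM in DKO libraries, where control replicate 4 was the library that overlapped. Its log2 fold change over both sets was 0.42 (SE 0.14), a fold of 1.34, with an unadjusted p of 0.0051 and an adjusted p of 0.358 in edgeR.

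Fxyd4, the modulator of the sodium pump, was nearly level in the Flcn cross, at 54.2, 58.2, 63.8, 44.0 and 44.7 CPM in controls and 48.9, 42.3, 51.8, 62.0 and 51.5 CPM in Flcn KO libraries (log2 fold change -0.04, SE 0.14, adjusted p = 0.961). Its level was 45.4, 78.0 and 52.0 CPM in controls and 61.7, 69.1, 66.7 and 63.8 CPM in DKO libraries of the Flcn/Tfeb cross (log2 fold change 0.17, SE 0.20, adjusted p = 0.837, or 0.085 without control replicate 3). The sets of the Flcn/Tfe3 cross parted. Set B controls counted 46.1, 57.9 and 48.7 CPM and set B DKO libraries 35.9 to 61.0 CPM (median 56.7 CPM), a full overlap. Set C controls counted 68.0, 61.0, 48.2, 63.0 and 49.2 CPM and set C DKO libraries 35.6, 43.9, 47.2 and 33.6 CPM, with every DKO library below every control. Over both sets the change was -0.26 (SE 0.13, adjusted p = 0.727 in edgeR) on the log2 scale.

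Hsd11b2, the enzyme that keeps glucocorticoids from the mineralocorticoid receptor, counted 41.9, 41.9, 56.9, 54.5 and 60.9 CPM in control Flcn libraries and 50.9, 66.2, 58.0, 46.1 and 62.4 CPM in Flcn KO libraries (log2 fold change 0.16, SE 0.13, adjusted p = 0.743). It counted 43.1, 38.2 and 99.4 CPM in control Flcn-Tfeb and 35.6, 23.3, 43.9 and 31.5 CPM in DKO libraries. Replicate 3 of the controls stood far above every other library of this cross, and the log2 fold change of -0.84 (SE 0.33, unadjusted p = 0.025, adjusted p = 0.798 in edgeR) was -0.25 without it. Hsd11b2 in the Flcn/Tfe3 cross was 58.2, 67.4 and 69.7 CPM in set B controls and 70.5 to 91.0 CPM (median 86.3 CPM) in set B DKO libraries, without overlap. In set C it was 61.9, 34.3, 60.3, 52.9 and 44.2 CPM in controls and 70.7, 68.5, 68.5 and 50.03 CPM in DKO libraries, where DKO replicate 10 overlapped. The log2 fold change over both sets was 0.34 (SE 0.11), a fold of 1.26, with an unadjusted p of 0.0045 and an adjusted p of 0.33 in edgeR.

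Gata3, the lineage factor, had the smallest fold changes. It counted 109, 94.2, 94.1, 102 and 163 CPM in control Flcn libraries and 93.1, 107, 117, 118 and 113 CPM in Flcn KO libraries (log2 fold change -0.03, SE 0.14, adjusted p = 0.967). It counted 74.5, 84.4 and 121 CPM in control Flcn-Tfeb libraries and 98.1, 82.3, 95.1 and 86.7 CPM in Flcn/Tfeb DKO libraries (log2 fold change -0.04, SE 0.19, adjusted p = 0.965), and the sign turned without control replicate 3 (0.20). Its levels in the Flcn/Tfe3 cross were 125, 119 and 161 CPM in set B controls and 72.7 to 146 CPM (median 104 CPM) in set B DKO libraries, and 82.2, 67.2, 125, 93.7 and 104 CPM in set C controls against 113, 121, 106 and 114 CPM in set C DKO libraries. The sets moved in opposite directions, -0.27 in set B and 0.22 in set C on the log2 scale, and the change over both was -0.01 (SE 0.14, adjusted p = 0.995 in edgeR). All groups of Gata3 overlapped.

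**Figure D2:**
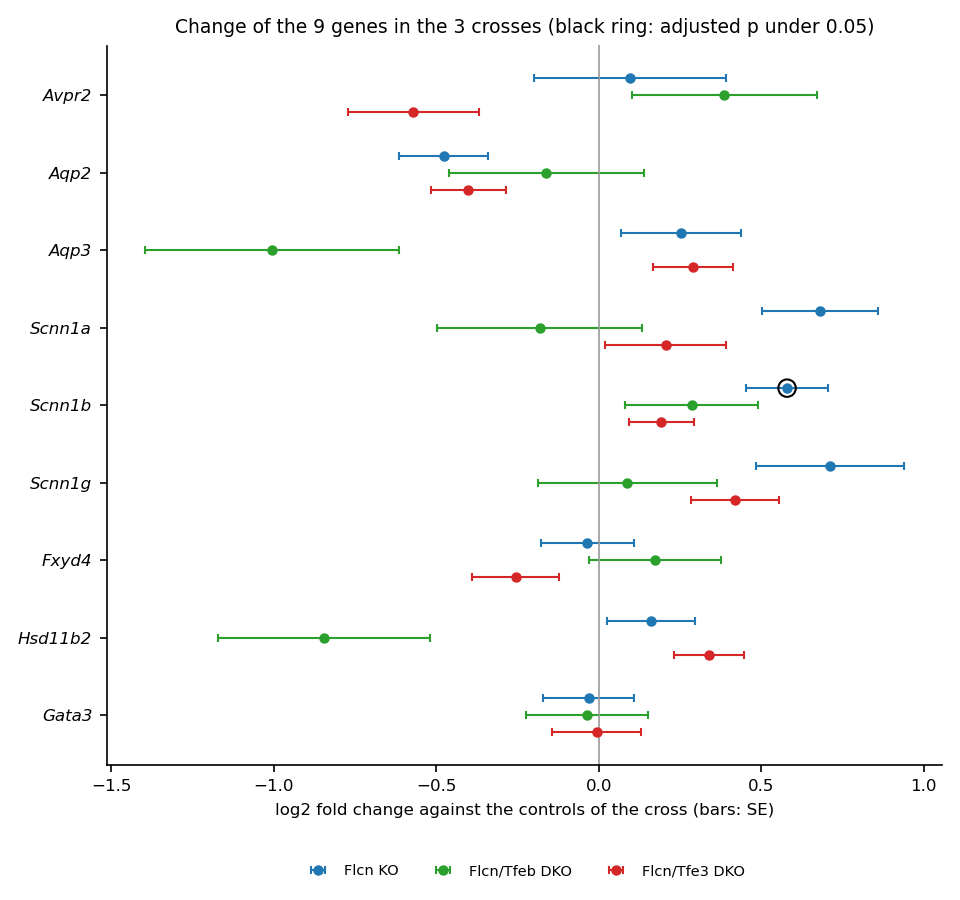
Log2 fold change of each gene against the controls of its cross (horizontal axis, points with SE bars) in the Flcn KO, Flcn/Tfeb DKO and Flcn/Tfe3 DKO kidneys; a black ring marks an adjusted p under 0.05. A single point is ringed, Scnn1b in the Flcn KO at 0.58, and the widest bars belong to the Flcn/Tfeb cross.

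Counted together, 1 of the 9 genes passed an adjusted p of 0.05 in the Flcn cross (Scnn1b), where 0.52% of 11932 genes did, and DESeq2 called the same gene alone of the 9, beside 0.947% of all genes. At an unadjusted p under 0.05, 4 of the 9 stood out there, with Scnn1a, Scnn1b and Scnn1g higher and Aqp2 lower, beside 9.07% of all genes. Flcn KO libraries all lay above the controls for Scnn1a and Scnn1b, as they did for 1.66% of all genes, and lay below for none of the 9, as they did for 0.763% of all genes. The log2 fold changes of the 9 ran from -0.48 to 0.71, with a median of 0.16.

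In the Flcn/Tfeb cross none of the 9 passed in edgeR, where 0 of 12469 genes did (0%), and DESeq2 called 0 as well. At an unadjusted p under 0.05, 632 genes (5.07%) and 2 of the 9 stood out, Aqp3 and Hsd11b2, both with lower values in the DKO libraries and both resting on control replicate 3. None of the 9 was separated in either direction, beside 2.56% of all genes with every DKO library above every control and 3.14% with every one below. The log2 fold changes ran from -1.01 to 0.39, with a median of -0.04.

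As for the Flcn/Tfe3 cross, none of the 9 passed in edgeR, where 0.385% of 12456 genes did, and DESeq2 called 1, Aqp2, beside 0.771% of all genes. At an unadjusted p under 0.05, 5 of the 9 stood out, with Aqp3, Scnn1g and Hsd11b2 higher and Aqp2 and Avpr2 lower in DKO libraries, beside 7.15% of all genes. With sets B and C pooled, no gene of the 9 had every DKO library above every control or every one below. Of all genes, 0.136% lay so above and 0.00803% so below. Within set B the DKO libraries lay above all controls for Scnn1g and Hsd11b2, beside 1.71% of all genes, and below for none of the 9, beside 1.2%. Within set C they lay above for Scnn1b, beside 4.02% of all genes, and below for Aqp2 and Fxyd4, beside 2.11%. The log2 fold changes over both sets ran from -0.57 to 0.42, with a median of 0.19.

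Fitted alone, set C called Aqp2 and Fxyd4 as lower in DKO kidneys, by -0.61 (SE 0.15, adjusted p = 0.0289) and -0.58 (SE 0.16, adjusted p = 0.0469) on the log2 scale, folds of 0.657 and 0.671 in edgeR. These are 2 of the 9 genes beside 4.68% of all genes tested in that set. Fitted alone, set B called none of the 9, beside 0.0606% of all genes, and its values there were -0.21 (SE 0.14) for Aqp2 and 0.05 for Fxyd4. Avpr2 was at -0.93 (SE 0.30, adjusted p = 0.0838) in set C and at -0.24 in set B, and Scnn1b at 0.30 (SE 0.14, adjusted p = 0.215) and 0.05. Scnn1g (0.40 in each set), Hsd11b2 (0.36 in set B and 0.29 in set C) and Aqp3 (0.22 and 0.33) had like values in both.

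The difference between the sets was tested as such. None of the 9 passed, beside 0.838% of all genes, and 2 stood out at an unadjusted p under 0.05 (Fxyd4 and Gata3), beside 20.8% of all genes. The values were -0.58 (SE 0.24, unadjusted p = 0.0209, adjusted p = 0.163) for Fxyd4, -0.36 (SE 0.21, adjusted p = 0.341) for Aqp2, -0.65 for Avpr2 (adjusted p = 0.343) and 0.53 (unadjusted p = 0.0491, adjusted p = 0.238) for Gata3, each as set C less set B in edgeR. Other measures moved with the groups in set C. Red blood cell genes summed to 2084 to 7464 CPM in its controls and 1411 to 1854 CPM in its DKO libraries, and 4 of the 5 fell in the set C fit (Hbb-bs, Hbb-bt, Hba-a1 and Hba-a2, with the difference between sets passing for Hbb-bs at -1.75, adjusted p = 0.0474), while in set B the sums were 3664 to 5880 and 3249 to 6162 CPM. The share of reads outside genes was 8.78% to 18.4% in set C controls and 7.92% to 10.5% in set C DKO libraries. Depth parted these groups without overlap, at 1719367 to 2909353 counts in genes in set C controls and 3159884 to 3555791 in set C DKO libraries. The part of any of these measures in the Aqp2 and Fxyd4 values was not tested.

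**Figure D3:**
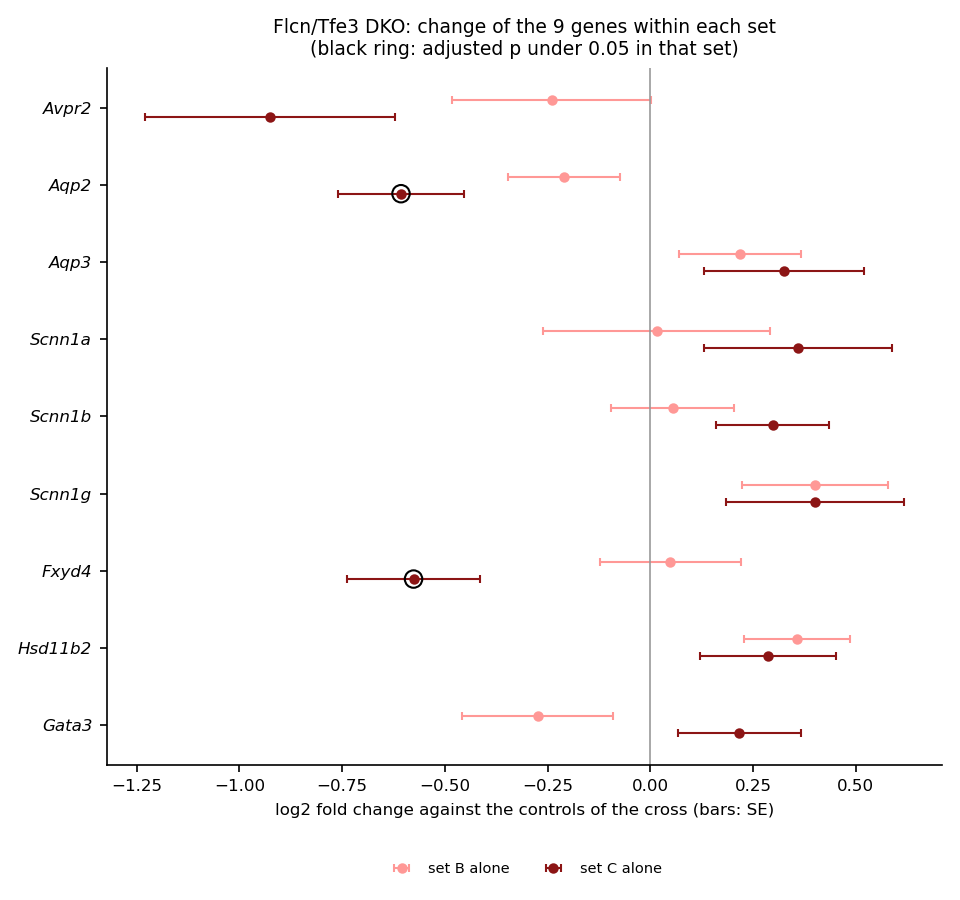
Log2 fold change of each gene in Flcn/Tfe3 DKO against control kidneys (horizontal axis, points with SE bars), fitted within set B and within set C; a black ring marks an adjusted p under 0.05 in that set. Aqp2 (-0.61) and Fxyd4 (-0.58) are ringed in set C, and the values of Scnn1g coincide at 0.40.

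Whether the change of a gene differed between crosses was tested on the difference itself, each change being taken against its own controls. For the Flcn/Tfeb change less the Flcn change, none of the 9 passed, beside 0.0153% of all genes, and 3 stood out at an unadjusted p under 0.05, beside 5.95% of all genes: Aqp3 at -1.27 (SE 0.41, adjusted p = 0.693), Hsd11b2 at -1.01 (SE 0.34, adjusted p = 0.693) and Scnn1a at -0.88 (SE 0.35, adjusted p = 0.824). Without control Flcn-Tfeb replicate 3 these were -0.52, -0.40 and -0.47. Scnn1b, called in the Flcn cross alone, differed by -0.29 (adjusted p = 0.889), or -0.43 without that library (adjusted p = 0.703), and so was not shown to differ. For the Flcn/Tfe3 change less the Flcn change, none of the 9 passed, beside 0% of all genes, and Scnn1b alone had an unadjusted p under 0.05, at -0.38 (SE 0.16, unadjusted p = 0.021, adjusted p = 0.534), where 8.78% of all genes did, a share near 1 in 9. Aqp2 differed there by 0.10 (adjusted p = 0.898).

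For the Flcn/Tfe3 change less the Flcn/Tfeb change, none of the 9 passed, beside 0.022% of all genes. At an unadjusted p under 0.05, which 13.4% of all genes had, stood Aqp3 at 1.30 (SE 0.33, p = 0.00055, adjusted p = 0.218 in edgeR), Hsd11b2 at 1.17 (SE 0.28, p = 0.0003, adjusted p = 0.218 in edgeR) and Avpr2 at -0.97 (SE 0.35, p = 0.01, adjusted p = 0.264 in edgeR). Both positive differences turned on the controls of the Flcn/Tfeb cross: without replicate 3 they were 0.55 for Aqp3 and 0.59 for Hsd11b2 (Avpr2 was then at -0.78), and without replicate 2 both passed (adjusted p = 0.0247 and 0.0224), as did 1.13% of all genes, 157 where 3 had passed with it.

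A ratio of 2 genes within a library does not depend on how libraries are scaled, and the log2 ratio of Aqp2 to Scnn1a is given as a description, without a test, because the pair was chosen with results known. It was 3.24 to 4.47 in control Flcn libraries (3.82 ± 0.45, SD, n = 5) and 2.07 to 3.14 in Flcn KO libraries (2.59 ± 0.46, SD, n = 5), without overlap. It was 3.55 to 4.11 in control Flcn-Tfeb and 3.18 to 4.55 in Flcn/Tfeb DKO libraries. In the Flcn/Tfe3 cross it was 4.35 to 5.44 in controls and 3.92 to 5.15 in DKO libraries of set B, and 4.06 to 4.89 and 3.10 to 4.43 in set C, with overlap in both sets.

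How the 9 genes varied from library to library within a group was examined after removing the mean of each group and set from log2 CPM. Over the 36 pairs and 35 libraries, Pearson's r ran from -0.51 to 0.61 with a median of 0.17, and 22 pairs were positive. No pair passed a permutation test within groups after adjustment over the 36. The highest was Aqp2 with Aqp3 (r = 0.61, permutation p = 0.0185, rho = 0.49, permutation p = 0.0159, adjusted p = 0.166 and 0.190), and was at r = 0.46 without the 2 libraries farthest from the median, 0.32 without the control Flcn-Tfeb group, and 0.75, -0.05 and 0.44 within sets A, B and C. Avpr2 with Fxyd4 had r = 0.52 (permutation p = 0.00414) and rho = 0.58 (permutation p = 0.00236), with adjusted p of 0.0745 and 0.085, r = 0.62 without the farthest 2 libraries, and 0.78, 0.59 and 0.05 within sets A, B and C. Avpr2 with Hsd11b2 was the most negative (r = -0.51, permutation p = 0.00393, rho = -0.50, permutation p = 0.00897, adjusted p = 0.0745 and 0.161), and was -0.46 without the farthest 2 libraries and -0.49, -0.19 and -0.68 within the sets.

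In 26 libraries, those of sets A and C, the tables list reads that fell outside annotated genes, and the share of such reads, less its group mean, was set against log2 CPM of every gene, a relation that was added after the values were seen. It passed for 4 of the 9 genes and for 27.9% of 12274 genes (permutation test of Pearson's r, adjusted over those genes), and at an unadjusted p under 0.05 for 4 of the 9 and 40.5% of all, so it is a general feature of these libraries. Hsd11b2 was lower where the share was higher (r = -0.76, permutation p = 0.00011, adjusted p = 0.00266, rho = -0.69, permutation p = 0.00108), with r of -0.67 without the farthest 2 libraries. Gata3 (r = -0.76, permutation p = 0.00162, adjusted p = 0.0115, rho = -0.61, permutation p = 0.0097) and Aqp3 (r = -0.64, permutation p = 0.0104, adjusted p = 0.0406, rho = -0.60, permutation p = 0.0056) were lower as well, both at -0.63 without those libraries. Avpr2 went the other way (r = 0.64, permutation p = 0.00521, adjusted p = 0.0248, rho = 0.62, permutation p = 0.00916) and was at 0.60 without them. Values as far from 0 as that of Hsd11b2 were held by 9.85% of all genes.

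Within set A (17 libraries) and set C (9 libraries) the relation kept its sign for these 4 genes, at -0.77 and -0.74 for Hsd11b2, -0.71 and -0.89 for Gata3, -0.61 and -0.71 for Aqp3, and 0.76 and 0.39 for Avpr2. The other 5 did not pass: Fxyd4 had r = 0.51 and rho = 0.48 (permutation p = 0.0591 and 0.0527, adjusted p of r = 0.140), Scnn1a r = -0.48 and rho = -0.44 (permutation p = 0.0539 and 0.0557, adjusted p of r = 0.131), Aqp2 r = -0.36, Scnn1b r = 0.34 and Scnn1g r = -0.15. Scnn1b had opposite signs in the sets, 0.58 in set A and -0.85 in set C. In the Flcn cross, where Scnn1b passed, the share was 9.06% to 18.0% in controls and 12.9% to 18.1% in Flcn KO libraries. In the Flcn/Tfeb cross it was 9.07% to 19.9% in controls and 18.8% to 19.4% in DKO libraries, and control replicate 3, with the lowest share, held the highest Aqp3, Hsd11b2 and Gata3 of its group and the lowest Avpr2. The part of this share in the group differences was not tested.

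**Figure D4:**
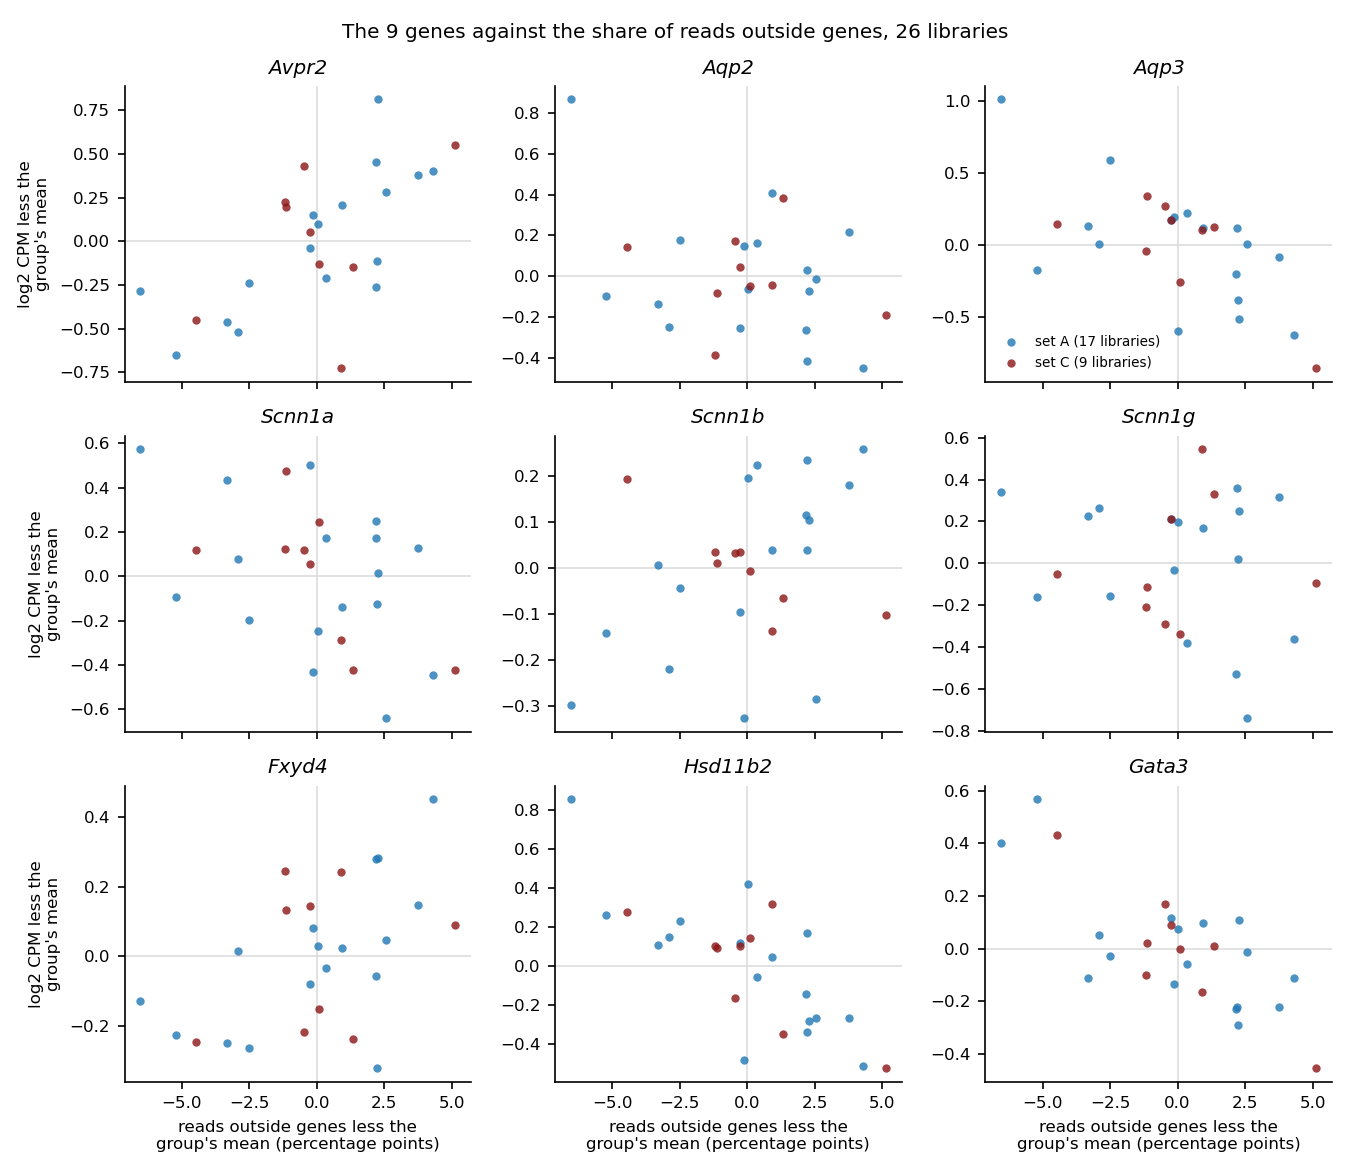
Log2 CPM of each gene less the mean of its group (vertical axes) against the share of reads outside genes less the mean of its group (horizontal axes, percentage points), in the 17 libraries of set A and the 9 of set C, each point a library. Hsd11b2, Gata3 and Aqp3 slope downwards and Avpr2 upwards.

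For each of the 9 genes, the 3 genes whose variation within groups was most like it over the 35 libraries were found among 12274 genes, as a description of libraries that share depth and quality. Those of Hsd11b2 were Litaf (r = 0.86), Rbm42 and Rab3ip (0.85 each), and those of Gata3 were Wasf2, Chd4 and Myh9 (0.85 each). Those of Aqp3 were Slc2a1 (0.79), Arf1 and Acat2 (0.77 each), those of Aqp2 Actr1b (0.72), Slc25a10 (0.70) and Slc9a3r2 (0.67), and those of Avpr2 Pla2r1 (0.77), Guf1 (0.75) and AI314278 (0.73). Among the sodium genes, Scnn1a was nearest to Pcyt1a (0.77), Dgkz (0.76) and Fhod3 (0.73), Scnn1b to Lmtk3 (0.74), Camk2d (0.68) and the cotransporter gene Slc12a1 (0.67), Scnn1g to Prepl (0.72), Slc43a3 (0.69) and Cox15 (0.64), and Fxyd4 to Polr3f (0.65), Zfp933 (0.64) and Ufm1 (0.64). No gene of the 9 was among the nearest 3 of another.

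Beside the 9 genes, other genes of the same pathways were counted from lists drawn up for that purpose. Over 22 further genes of the vasopressin and water pathway the median log2 fold change in the Flcn KO kidneys was 0.11, beside -0.01 over all genes. Of these genes 1 rose and none fell, where 0.52% of all genes passed. It was Ptger3, encoding the EP3 receptor of prostaglandin E2, which opposes vasopressin in the collecting duct by lowering cyclic AMP. Ptger3 counted 7.54, 9.47, 6.91, 7.50 and 8.398 CPM in controls and 21.1, 13.5, 17.4, 15.97 and 18.8 CPM in Flcn KO libraries, with no overlap and a log2 fold change of 1.12 (SE 0.20, adjusted p = 0.0109 in edgeR). It passed in each of 8 other settings and with each of 10 libraries left out.

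In the Flcn/Tfe3 cross 1 gene of this list rose and 1 fell, where 0.385% of all genes passed. The median of the list was 0.06 beside 0.01 over all genes. Ptger3 rose again, by 1.09 (SE 0.19, adjusted p = 0.00308) on the log2 scale, from 7.76 to 10.1 CPM in set B controls and 2.74 to 9.22 CPM in set C controls to 9.42, 11.7, 17.3 and 19.5 CPM in set C DKO libraries and a median of 18.3 CPM in set B DKO libraries. Ptger1, encoding the EP1 receptor, fell by 0.72 (SE 0.14, adjusted p = 0.00883 in edgeR). Among Flcn/Tfeb libraries 21 genes of the list were tested and none passed (median -0.08), with Ptger3 at 8.15, 5.78 and 6.39 CPM in controls and 5.47, 2.51, 7.58 and 4.67 CPM in DKO libraries (log2 fold change -0.37, adjusted p = 0.831). The difference of that change from the one in the Flcn cross was -1.48 (adjusted p = 0.524), and from the one in the Flcn/Tfe3 cross 1.43 (Flcn/Tfe3 less Flcn/Tfeb, adjusted p = 0.223), so that neither difference passed.

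Of 22 genes of the aldosterone and sodium pathway, 20 were tested and none passed in any of the 3 crosses, with medians of -0.12, -0.11 and 0.02. Nr3c2, the mineralocorticoid receptor gene, counted 0 to 14 reads in a library and was removed by the filter. Sgk1, the aldosterone-induced kinase that keeps the sodium channel at the membrane, was at -0.28 on the log2 scale in the Flcn cross, at -0.04 in Flcn/Tfeb DKO libraries and at -0.41 in Flcn/Tfe3 DKO libraries. In set C alone Sgk1 counted 70.6, 70.6, 63.8, 73.9 and 74.0 CPM in controls and 46.2, 57.2, 43.8 and 35.02 CPM in DKO libraries, and fell there by 0.68 (SE 0.15, adjusted p = 0.0162 in edgeR), as did Tsc22d3, a glucocorticoid- and aldosterone-induced gene, by 0.56 (adjusted p = 0.0432). In set C 4.68% of all genes passed. Of 20 genes of this list tested there, 2 fell and 0 rose. Their median was 0.04, with 11 above 0. The difference between the sets for Sgk1 was -0.48 (adjusted p = 0.188).

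Of 24 genes of collecting duct identity, none passed in the Flcn/Tfeb and Flcn/Tfe3 crosses (medians -0.20 and 0.01), where 0% and 0.385% of all genes did. In the Flcn cross, where 0.52% of all genes passed and the median of the list was 0.01, 1 gene of the list passed. It was Cldn4, a tight junction gene, at 29.7, 26.1, 29.2, 38.0 and 45.0 CPM in controls and 67.2, 48.0, 52.5, 65.7 and 56.8 CPM in Flcn KO libraries, which rose by 0.77 (SE 0.15, adjusted p = 0.0283 in edgeR) on the log2 scale, but passed in 3 of 10 fits with a library left out and not with library totals (adjusted p = 0.148). In the Flcn/Tfe3 cross Cldn4 was at 0.45 (adjusted p = 0.186), and Cdh16, whose promoter drives the recombinase, was at 0.05, -0.40 and -0.0025 in the 3 crosses. The Flcn/Tfeb values of this list include control replicate 3, where the list summed to 3554 CPM, the highest of its group. The part of that library in the Cdh16 value and the list median was not tested.

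**Figure D5:**
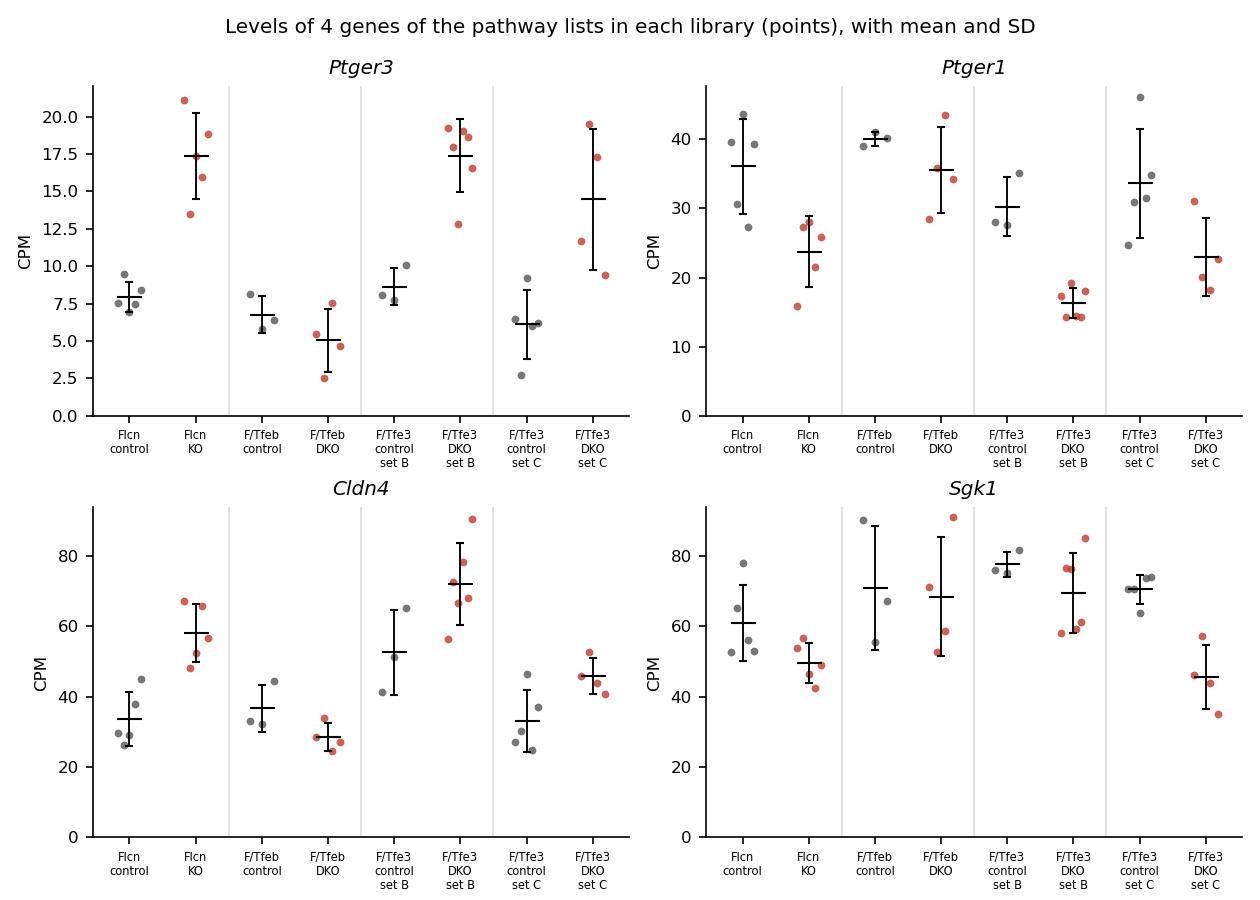
CPM (vertical axis, from 0) of Ptger3, Ptger1, Cldn4 and Sgk1 in every library (points, grey for controls and red for KO or DKO libraries), with the mean and SD of each group. Ptger3 separates Flcn KO and set B and set C Flcn/Tfe3 DKO libraries from their own controls, and in the Flcn/Tfeb cross the groups overlap.

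Lists of genes of other cell types were counted in the same libraries. The summed level of 14 intercalated cell genes, all detected, was 318 to 420 CPM in control Flcn libraries and 642 to 798 CPM in Flcn KO libraries. Of 12 tested, 4 rose, beside 0.52% of all genes passing in that cross. They were Atp6v1g3, Atp6v0d2, Aqp6 and Rhcg, the last passing in 5 of 10 fits with a library left out. The sum was 381 to 400 and 412 to 481 CPM in the Flcn/Tfeb cross, with none passing, beside 0% of all genes. These sums did not overlap, and 2.56% of single genes lay so above in that cross. For the Flcn/Tfeb change less the Flcn change, 0 of 13 intercalated genes passed, beside 0.0153% of all genes. The sum was 326 to 432 and 468 to 679 CPM in the Flcn/Tfe3 cross, with 3 of 14 rising (Atp6v0d2, Atp6v1c2 and Aqp6), beside 0.385% of all genes. Of the 8 thick ascending limb genes tested in the Flcn cross, Umod alone rose, by 1.0 on the log2 scale, while 4 of the 8 were above 0 and their median was -0.05, and their sum, 1120 to 1587 CPM in control Flcn and 1480 to 1836 CPM in Flcn KO libraries, includes Umod. Podocyte genes summed to 471 to 557 CPM in control Flcn and 366 to 463 CPM in Flcn KO libraries, and nephron progenitor genes to 54.5 to 60.02 and 41.4 to 52.3 CPM, neither overlapping and none of their genes passing. Of single genes, 0.763% lay so below in this cross. The median log2 fold change was -0.10 over 6 podocyte genes, with 0 above 0. Over 5 nephron progenitor genes tested it was -0.28, with 2 above 0. All 10 proximal tubule genes had log2 fold changes below 0 there, with a median of -0.26, and none passed. Ureteric tip genes summed to 91.1 to 214 CPM and 74.8 to 114 CPM in the same groups, with none passing. In Flcn/Tfeb DKO libraries podocyte genes summed to 330 to 404 CPM against 413 to 524 CPM in controls, with none passing. Their median log2 fold change was -0.38 with 1 of 6 above 0, and 3.14% of single genes lay below every control there. T cell genes were near 0 in every group, at 0.48 to 7.89 CPM over all libraries. Umod rose by 0.71 in the Flcn/Tfe3 cross. Fitted alone, set B called Atp6v1g3, Atp6v1c2 and Aqp6, where 0.0606% of all genes passed. Set C, where 4.68% of all genes passed, called Atp6v0d2, Atp6v1c2, Aqp6, Umod, Ptger3, the keratin gene Krt7 (0.64) and the distal tubule kinase gene Wnk4 (0.70) as higher in DKO libraries. It called the sulfotransferase gene Sult1d1 (-0.61) as lower, beside the red blood cell and sodium pathway genes named above. The part of these in the values of Scnn1b and of the other 8 genes was not tested.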

How the data were processed

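The deposited values were counts: the authors sequenced QuantSeq 3′ mRNA libraries (single-end), trimmed and mapped reads with STAR to mm10 and counted reads per gene with HTSeq-count. The trimming tool is named differently in the methods (bbduk) and in the submitters' processing notes (Trim Galore), and the strand setting and annotation release are not given in the sources used here. Set B lists no reads outside genes. Each cross was fitted against its own controls with edgeR 4.0.16 in R 4.3.3 (filterByExpr, TMM, quasi-likelihood F test, two-sided, Benjamini-Hochberg over all genes tested, adjusted p under 0.05), with set as a term in the Flcn/Tfe3 cross. CPM are counts scaled by TMM library sizes. DESeq2 1.42.0 and other settings were alternatives. Relations across libraries used log2 CPM (prior count 2) less group and set means and 100000 permutations within them, with p-values adjusted over the 36 pairs or, for reads outside genes, those of r over all genes. The genes named are the 9, every called gene of the lists and a few context genes, and each gene's nearest 3. The 9 genes and the lists were chosen with earlier results of these data known. Replicate numbers did not pair the libraries. In 63 pairs of libraries of 1 group and set, none agreed within sampling noise. Of 35 libraries, all were used. Positions are those of GENCODE M21 (GRCm38). P-values of group differences judge each difference against the spread between libraries. Counting error alone limits the lowest detectable level to 3 counts, 0.708 to 1.82 CPM.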

Additional observations from a re-analysis of the deposited data

Results flagged for a closer look

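In 55 groups of 4 to 10 libraries, 5 held a library far from the others by Dixon's criterion, and chance alone gives about 1 in 20 groups, or 2.75. Aqp3 counted 10.98 CPM in Flcn/Tfeb DKO replicate 3, where the nearest library had 19.15 CPM. Aqp3 counted 14.4 CPM in control Flcn-Tfe3 replicate 5, where the nearest had 28.57 CPM. That library had 18.4% of its reads outside genes, the highest of set C. Scnn1g counted 28.14 CPM in control Flcn-Tfe3 replicate 4, the nearest having 20.12 CPM. Gata3 counted 163.2 CPM in control Flcn replicate 5, the nearest having 108.8 CPM, and that library had 9.06% of its reads outside genes, the lowest of its cross. Ptger1 counted 31.06 CPM in Flcn/Tfe3 DKO replicate 7, the nearest having 22.66 CPM. Groups of the Flcn/Tfe3 cross pool sets B and C here, whose levels differ. Within a set, 6 of 66 groups held such a library, where chance gives 3.3: the 2 Aqp3 values, Scnn1g in control Flcn-Tfe3 replicate 4 and Gata3 remained, Aqp2 at 555.3 CPM in Flcn/Tfe3 DKO replicate 5 and Hsd11b2 at 50.03 CPM in Flcn/Tfe3 DKO replicate 10 were added, and Ptger1 was not among them. With every library kept, no difference between crosses passed its edgeR test for any of the 9 genes. Without control Flcn-Tfeb replicate 2, Aqp3 and Hsd11b2 passed for Flcn/Tfe3 less Flcn/Tfeb.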

How the results depend on the processing

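In the Flcn cross, 62 genes passed in the fit reported, 113 with DESeq2 and 95 without a filter. Scnn1b, the 1 gene of the 9, was lost (0 of the 9) with RLE factors, with library totals, with Xist as a covariate, with the replicate number as a block and with the 17 libraries of set A in 1 fit. With 1 library left out, 37 (without Flcn KO replicate 3) to 58 genes passed, and 0 to 1 of the 9. The Flcn/Tfeb cross had 1 gene passing with the 17 libraries in 1 fit, and 0 to 1 with a library left out. The Flcn/Tfe3 cross had 48 genes passing, against 96 with DESeq2 (1 of the 9), 26 with Xist as a covariate, 2 with the replicate number as a block, 8 in set B, 569 in set C (2 of the 9) and 29 without the set term, and 30 (without DKO replicate 7) to 53 with a library left out. For differences between crosses, the Flcn/Tfe3 less Flcn comparison called 459 genes with set C alone, Flcn/Tfe3 less Flcn/Tfeb called 3 genes, 0 with set B alone, 1 with set C alone and 1 to 157 with a library left out (157 genes and 2 of the 9 without control Flcn-Tfeb replicate 2, otherwise 0 of the 9), and Flcn/Tfeb less Flcn called 0 (without DKO replicate 4) to 3. Cldn4 (adjusted p = 0.148) and Rhcg in the Flcn cross did not pass with library totals. With the replicate block none of the 9 passed, nor did Rhcg in the Flcn cross (adjusted p = 0.0553) or, in the Flcn/Tfe3 cross, Ptger3 (0.793), Ptger1 (0.9999), Atp6v0d2 (0.409), Aqp6 (0.102) and Umod (0.699), while Atp6v1c2 did (0.049). The numbers did not pair libraries (r from -0.347 to 0.315).

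Signs turned in these log2 values, none of them called. Within the Flcn/Tfeb cross Scnn1g was -0.058 with library totals, and with the replicate block Gata3 was 0.017 and Atp6v1c2 0.057. Within the Flcn/Tfe3 cross Gata3 was 0.0701 with library totals, 0.0081 without a filter, 0.22 in set C and 0.022 without the set term, and Fxyd4 was 0.049 in set B. Flcn/Tfe3 less Flcn was -0.041 for Aqp3, 0.078 for Fxyd4 and -0.25 for Gata3 in set B, and -0.11 for Aqp2 and 0.0299 for Ptger3 in set C. Gata3 with RLE factors was 0.0054 for Flcn/Tfeb less Flcn and -0.0075 for Flcn/Tfe3 less Flcn/Tfeb, where it was also -0.26 in set B and Scnn1b 0.011 in set C. With 1 library left out, the Flcn cross gave Avpr2 -0.14 to 0.23, Fxyd4 -0.11 to 0.038 and Gata3 -0.085 to 0.14, the Flcn/Tfeb cross gave Aqp2 -0.37 to 0.41, Scnn1a -0.37 to 0.21, Scnn1g -0.063 to 0.30, Gata3 -0.17 to 0.20, Sgk1 -0.20 to 0.17, Atp6v1c2 -0.23 to 0.22 and Umod -0.48 to 0.17, and the Flcn/Tfe3 cross gave Gata3 -0.063 to 0.0802. Differences gave Aqp3 -0.048 to 0.23, Gata3 -0.15 to 0.092 and Ptger3 -0.11 to 0.076 for Flcn/Tfe3 less Flcn, Gata3 -0.16 to 0.24 for Flcn/Tfeb less Flcn, and Scnn1a -0.0029 to 0.56, Scnn1b -0.27 to 0.049 and Gata3 -0.21 to 0.14 for Flcn/Tfe3 less Flcn/Tfeb. The causes were not tested.

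The limits are 3 controls in the Flcn/Tfeb cross, 1 of which decides its larger values, low counts of Avpr2, Scnn1a and Scnn1g, and no measure of how many principal cells each kidney held. The test of the difference between sets C and B, and the relation to reads outside genes, were chosen after seeing the data.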
